A study of Homo sapiens with 2 samples.

Results

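The HOX genes and the PRAC1 and PRAC2 genes beside HOXB13 were examined in untreated cells of the lines RC77 T/E and MDA PCa 2b. Both are established human prostate cancer cell lines, and total RNA of each was sequenced in 1 paired-end, directional library. The members described here are genes of the deposited table whose symbol is HOX followed by a cluster letter from A to D and a number, together with PRAC1 and PRAC2. They are 37 of the 21382 genes of the table, of which 35 are HOX genes. HOXA9, HOXC5 and HOXC6 were not analysed here. Both lines were fed epidermal growth factor, MDA PCa 2b in a medium that also held serum, hydrocortisone, insulin and cholera toxin, and RC77 T/E in a serum-free keratinocyte medium with pituitary extract, so that line and medium cannot be told apart.

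HOX genes encode homeodomain transcription factors that set position along the body axis of the embryo. In each cluster they stand in a row on the same strand, and genes of the same number in different clusters are paralogs. Low-numbered genes lie at the 3′ end of a cluster and act towards the head, and the highest-numbered genes lie at the 5′ end and act towards the tail, where the prostate and the hindgut form. HOXB13, the 5′-most gene of the HOXB cluster, is known as a transcription factor of the luminal prostate epithelium. PRAC1 and PRAC2, next to it, encode small nuclear proteins named for their expression in prostate, rectum and colon.

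Expression is given as TPM, a share of all transcripts of a library that takes gene length into account. TPM keeps no record of read numbers, so the depth of the libraries and the precision of each value are unknown. With 1 library per cell line, no value has a replicate error and no difference has a replicate check. Many deposited values of 1 TPM or more lack their decimal mark, which was restored through the mean and the standard error that the authors also deposited. The mark was fixed in this way for 30 of the 37 members. It had 2 possible positions for HOXA10, HOXB3, HOXD9, HOXD10 and HOXD11, and 3 for HOXB13 and HOXC4, and all values possible are given for these. Where both lines were above 0, the plain TPM ratio between them did not depend on the position. Of the members with an open mark, this applies to HOXA10 only. The log2 ratio of TPM + 1 did depend on it, and for HOXB13 it was -2.01 at the lowest position and -8.24 at the highest. A value of 0 is described as listed at 0 because no limit of detection is known.

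The lines differed both in how many HOX genes were expressed and in which. At a threshold of 1 TPM, a level that the study's methods apply to the mean of the lines, 7 of 37 members passed in MDA PCa 2b versus 16 in RC77 T/E. Of all 21382 genes, 49.6% and 52.8% passed, so the share of members was the lower in both lines, and by more in MDA PCa 2b. HOXA10 alone reached it in both lines, against 45.7% of all genes. Of the 37 members, 15 were at 1 TPM or above in RC77 T/E only, compared with 7.10% of all genes, and 6 of 37 in MDA PCa 2b only, compared with 3.93%, so that both shares were above those of all genes. The members just inside the threshold were HOXA4 and HOXB4, at 1.09 and 1.16 TPM in RC77 T/E, and those just outside it were HOXB9 and HOXC12, at 0.964 and 0.852 TPM in MDA PCa 2b.

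Most members that were above 0 leaned towards RC77 T/E. In all, 23 of 37 members were higher in RC77 T/E versus 12 in MDA PCa 2b, and 2 were listed at 0 in both, beside 37.4% and 41.3% of all genes that were higher in the respective line. In RNA of whole cultures, fewer expressing cells and less RNA per cell cannot be told apart. Of the 37 members, 15 were listed at 0 in MDA PCa 2b versus 8 in RC77 T/E, compared with 27.0% and 26.8% of all genes, a higher share in the former and a lower one in the latter. A mean of 1 TPM or above was reached by 15 members. Of these, 9 were higher in RC77 T/E by 2-fold or more versus 6 in MDA PCa 2b on the log2(TPM + 1) scale, where the shares over 11624 genes were 19.4% and 20.0%. A low member passed this filter only through the line in which it was high, so these counts describe the members and support nothing. Without the filter, 15 members were higher in RC77 T/E by 2-fold or more versus 6 in MDA PCa 2b, beside 14.4% and 14.5% of the 16832 genes above 0. The median log2 ratio of RC77 T/E over MDA PCa 2b over all 37 members was 0.50, and over all genes it was 0.

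**Figure D1:**
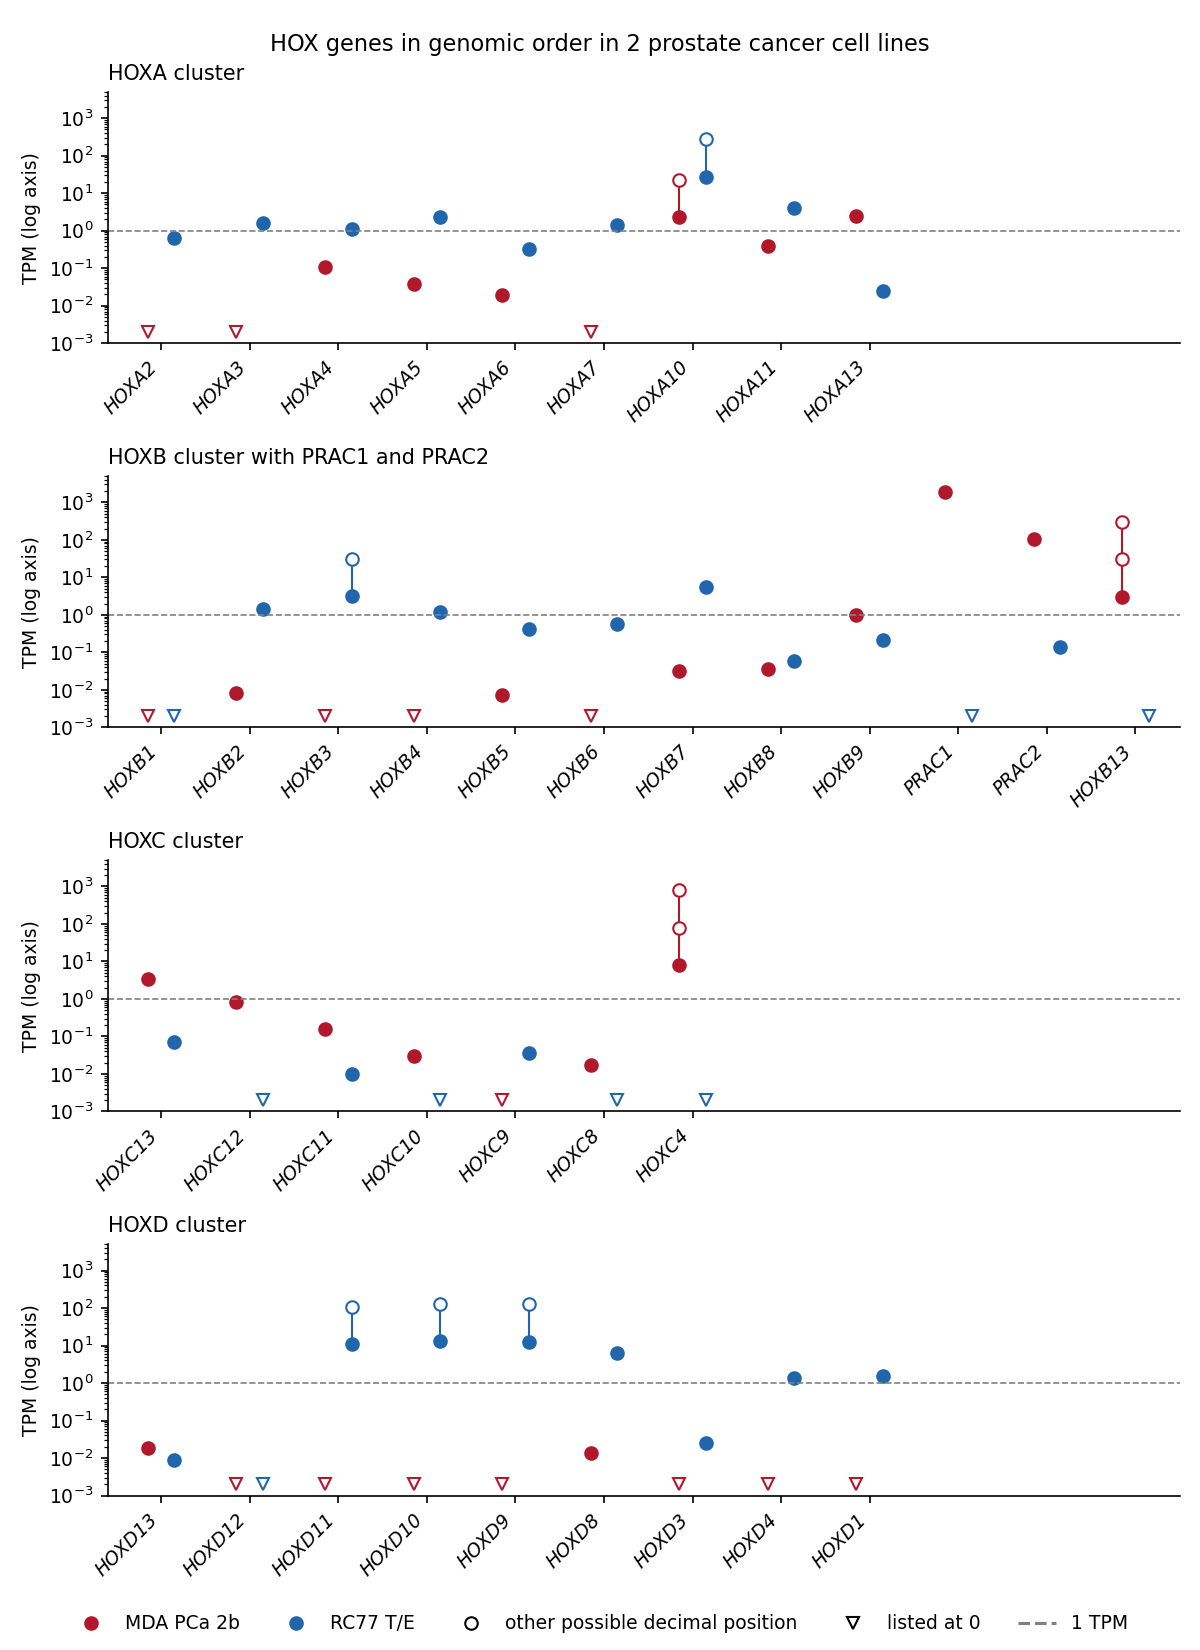
TPM (log axis) of each member in MDA PCa 2b (red) and RC77 T/E (blue), 1 library each, in genomic order within each cluster. Open circles joined by a line are the other possible positions of a lost decimal mark, triangles mark a gene listed at 0, and the dashed line is 1 TPM. Red points lie above blue points at the 5′ ends of HOXA, HOXB and HOXC, and blue points above red in most of HOXA, HOXB and HOXD.

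The HOXB13 neighbourhood held the highest member in MDA PCa 2b and was near 0 in RC77 T/E. PRAC1 (ENSG00000159182, minus strand, GRCh38 chromosome 17, 48721719 to 48722518) reached 1912 TPM in MDA PCa 2b but is listed at 0 in RC77 T/E. Only 94 of the 21382 genes were higher than PRAC1 in MDA PCa 2b, at any position of their decimal marks. PRAC2 (ENSG00000229637, plus strand, 48723185 to 48724758) reached 103.0 TPM in MDA PCa 2b against 0.142 TPM in RC77 T/E, 725 times as high in the former. HOXB13 (ENSG00000159184, minus strand, 48724763 to 48728750) had 3.02, 30.2 or 301.8 TPM in MDA PCa 2b, with its mark open, but is listed at 0 in RC77 T/E. All 3 genes were thus above 1 TPM in MDA PCa 2b and below 0.2 TPM in RC77 T/E.

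Within MDA PCa 2b the 3 neighbours differed in level. PRAC1 was 18.6 times as high as PRAC2 in TPM. It was 634, 63.4 or 6.34 times as high as HOXB13, so that it was the highest of the 3 at every position of the mark. The order of PRAC2 and HOXB13 is not determined. PRAC2 would be 34.1 or 3.41 times as high as HOXB13 at the lower positions, and HOXB13 would be 2.93 times as high as PRAC2 at the highest.

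Lineage markers of the prostate moved with HOXB13 and the PRAC genes, and their part in the result was not tested. The luminal list considered holds 11 genes, partners of HOXB13 as well as luminal markers. All 11 were at 1 TPM or above in MDA PCa 2b versus 5 in RC77 T/E, beside 49.6% and 52.8% of all genes. Of the 11, 9 were higher in MDA PCa 2b by 2-fold or more, beside 20.0% of the 11624 genes whose mean reached 1 TPM. The median log2 ratio of the list was -3.51, beside -0.15 over those 11624 genes. FOXA1, a pioneer transcription factor, was at 193.5 TPM in MDA PCa 2b against 4.19 TPM in RC77 T/E. TMPRSS2, a serine protease gene, was at 482.9 and 0.108 TPM, and KLK3, the gene of prostate-specific antigen, was at 5323 TPM in MDA PCa 2b but is listed at 0 in RC77 T/E. KRT8 and KRT18, keratins of simple epithelium, differed by 1.23 and 1.01 times.

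Of the 10 basal genes, all were at 1 TPM or above in RC77 T/E versus 4 in MDA PCa 2b, beside 52.8% and 49.6% of all genes. All 10 were higher in RC77 T/E by 2-fold or more, beside 19.4% of genes whose mean reached 1 TPM. The median log2 ratio of the 10 was 6.36. The 4 at 1 TPM or above in MDA PCa 2b were KRT14, KRT15, ITGB4 and CDH3, with KRT14 at 37.4 TPM there against 3255 TPM in RC77 T/E. KRT5 was at 0.00435 TPM in MDA PCa 2b against 4027 TPM in RC77 T/E. TP63, the factor that defines basal cells, is listed at 0 in MDA PCa 2b and was at 5.17 or 51.7 TPM in RC77 T/E.

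The 3 genes lie within 7032 bases. PRAC1 and PRAC2 are transcribed away from each other with 666 bases between them, and PRAC2 ends 4 bases from the end of HOXB13, which runs towards it. The next HOXB interval with values, that of HOXB7, which spans HOXB9, ends 88146 bases before PRAC1. A microRNA gene inside PRAC2 on the opposite strand, MIR3185, is listed at 0 in both lines, and whether the libraries capture microRNAs was not tested. Beyond HOXB13, the nearest protein-coding gene of the table was TTLL6, a tubulin polyglutamylase gene 33484 bases away. TTLL6 was at 2.33 TPM in MDA PCa 2b, with 0 listed for RC77 T/E. Further out, CALCOCO2, an autophagy receptor gene, stood 2.75 times as high in MDA PCa 2b and UBE2Z, a ubiquitin-conjugating enzyme gene, 1.28 times. Both were above 1 TPM in both lines. On the other side of the cluster, SKAP1 was at 0.00882 and 0.0203 TPM.

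**Figure D2:**
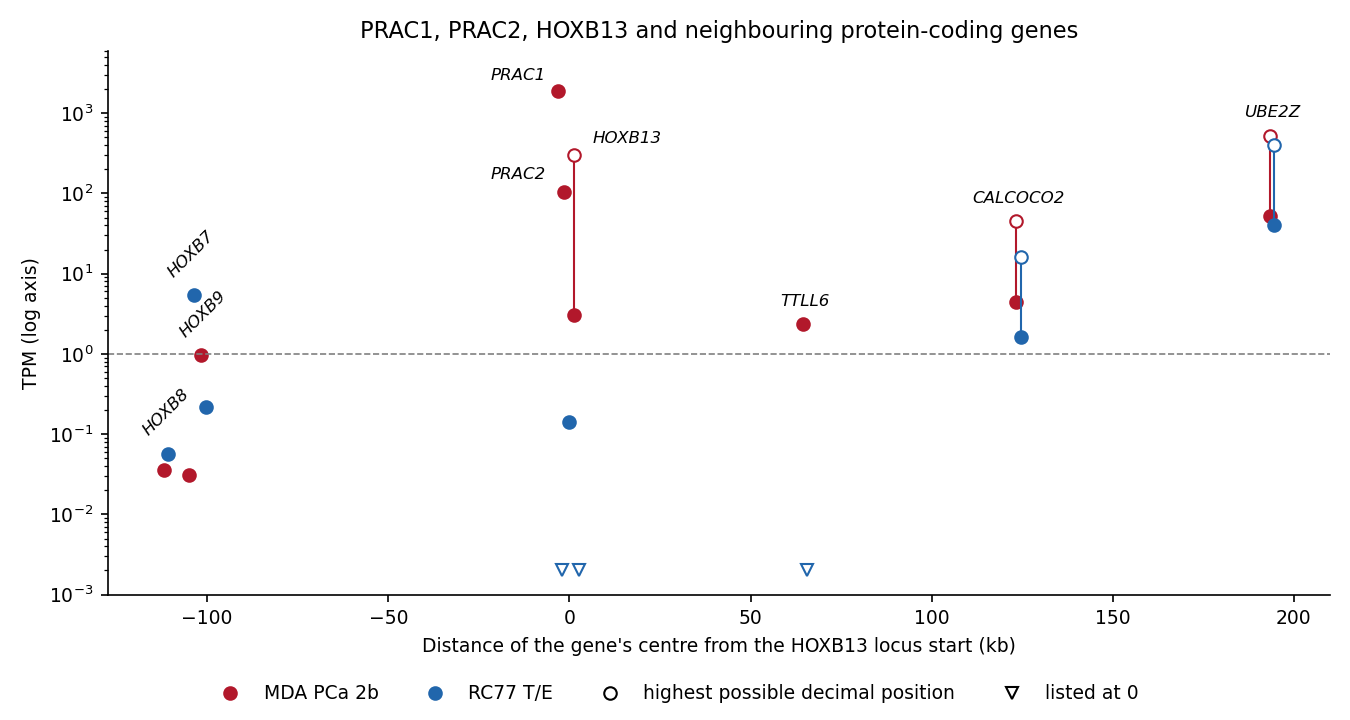
TPM (log axis) of HOXB7 to HOXB9, PRAC1, PRAC2, HOXB13 and the protein-coding genes beyond it against the distance of each gene's centre from the start of the HOXB13 locus (kb), in MDA PCa 2b (red) and RC77 T/E (blue), set slightly apart. Open circles are the highest possible decimal position and triangles genes listed at 0, and the 3 genes at the centre and TTLL6 are high in red only.

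The sequences upstream of PRAC1 and PRAC2, which start 666 bases apart, are shown because both genes were high in 1 line and low or listed at 0 in the other. The windows are 220 bases long and end 30 bases before the start site, from RefSeq on GRCh38.p14, written along the strand of each gene. That of PRAC1 is chr17:48722549-48722768 on the minus strand, that of PRAC2 is chr17:48722935-48723154 on the plus strand, and capitals mark CpG dinucleotides, the sites at which human DNA is methylated. The window of HOXA13, chr7:27200122-27200341 on the minus strand, is set beside them as the promoter with the most CpG among the members.
PRAC1: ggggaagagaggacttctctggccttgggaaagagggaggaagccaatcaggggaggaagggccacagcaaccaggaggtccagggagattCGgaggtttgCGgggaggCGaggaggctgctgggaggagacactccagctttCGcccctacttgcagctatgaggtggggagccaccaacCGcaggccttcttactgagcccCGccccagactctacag
PRAC2: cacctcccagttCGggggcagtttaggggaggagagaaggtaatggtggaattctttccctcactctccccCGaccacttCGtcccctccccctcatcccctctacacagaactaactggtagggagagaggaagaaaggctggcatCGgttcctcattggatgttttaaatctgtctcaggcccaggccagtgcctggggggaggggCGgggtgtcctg
HOXA13: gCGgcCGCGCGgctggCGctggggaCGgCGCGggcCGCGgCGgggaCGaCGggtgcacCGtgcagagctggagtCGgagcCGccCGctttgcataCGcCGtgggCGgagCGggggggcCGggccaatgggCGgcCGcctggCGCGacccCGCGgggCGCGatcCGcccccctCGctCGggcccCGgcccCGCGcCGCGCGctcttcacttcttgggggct

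The PRAC1 window has 6 CpG and the PRAC2 window 5, against 39 in that of HOXA13. RefSeq windows were matched for 20 of the 37 members, of which 18 were HOX genes. Some belong to start sites far from the deposited gene start, by 20695 bases for HOXD3, 7988 for HOXD10 and 3064 for HOXD11. HOXA3 had 7 entries, and 1 window per gene was used. The CpG number of the 18 HOX windows ranged from 4 (HOXD4) to 39 around a median of 19, and the median of 35114 promoter windows was 9. A share of 41.1% of all windows had fewer CpG than PRAC1 and 37.2% had fewer than PRAC2. The GC content was 62.3% for PRAC1 and 58.2% for PRAC2, beside a median of 57.7% over all windows.

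Short motifs were searched on both strands of the same windows. The CCAAT box was found in 14 of the 18 HOX windows and in those of PRAC1 and PRAC2, and 29.8% of all windows hold it. TATAAA was found in the HOXA10 window only, beside 8.09% of all windows. CCAATAAA, a sequence known to be bound by HOXB13 that overlaps the CCAAT box, was in none of the 20, beside 0.749% of all windows. The forkhead motif TGTTTAC was found in that of HOXC4 only, beside 2.60% of all windows. These matches describe letters in 1 window per gene and are not evidence of binding. Neither methylation nor binding was measured here.

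**Figure D3:**
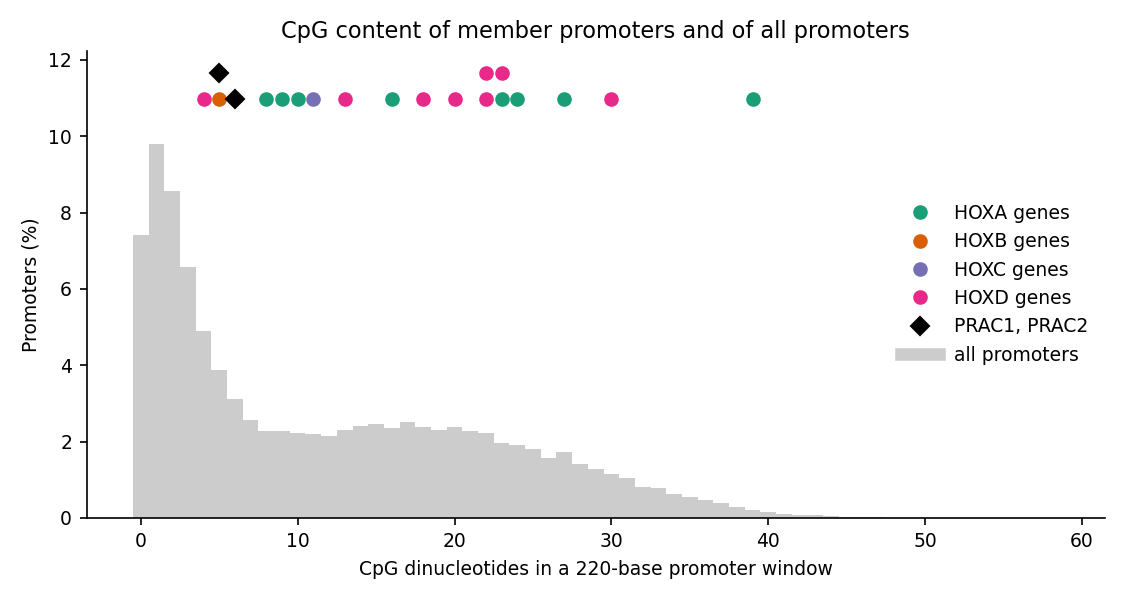
Share of 35114 RefSeq promoter windows of 220 bases (bars, %) by their number of CpG dinucleotides, with the members' windows as points above the bars by cluster and those of PRAC1 and PRAC2 as black diamonds. PRAC1 (6) and PRAC2 (5) lie near the low end of the HOX windows, which reach 39.

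Paralog group 13, the 5′-most group, was the only group with at least 3 members at 1 TPM or above in MDA PCa 2b and none in RC77 T/E. HOXA13 (chromosome 7, 27193503 to 27200091) had 2.50 TPM in MDA PCa 2b against 0.0247 TPM in RC77 T/E, 101 times as high in the former. HOXC13 (chromosome 12, 53938831 to 53946544) had 3.45 and 0.0690 TPM, 50.1 times as high in MDA PCa 2b. HOXB13 had the values given above. HOXD13 (chromosome 2, 176092721 to 176095944), the fourth paralog, had 0.0189 and 0.00879 TPM and so stayed near 0 in both lines. HOXA13 and HOXD13 are known for their part in limb, hindgut and urogenital development, and HOXC13 for its part in hair and nail.

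The homeoboxes of the 4 paralogs, the exon stretch that encodes the DNA-binding homeodomain, are shown because reads from stretches that are alike can be shared between paralogs. They were read from GENCODE release 29 transcripts (GRCh38) as the 180 bases placed by the WFQNRR motif that homeodomains share, and capitals mark bases that differ from HOXB13.
HOXB13, chr17:48726820-48726999, minus strand: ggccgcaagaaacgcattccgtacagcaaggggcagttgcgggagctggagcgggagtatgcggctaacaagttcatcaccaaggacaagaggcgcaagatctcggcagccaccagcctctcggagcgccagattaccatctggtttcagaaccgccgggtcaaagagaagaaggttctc
HOXC13, chr12:53945041-53945220, plus strand: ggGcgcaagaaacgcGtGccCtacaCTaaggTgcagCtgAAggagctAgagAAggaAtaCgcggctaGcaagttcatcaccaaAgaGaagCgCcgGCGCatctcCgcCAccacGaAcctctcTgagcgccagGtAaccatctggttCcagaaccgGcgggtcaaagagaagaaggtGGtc
HOXA13, chr7:27198222-27198401, minus strand: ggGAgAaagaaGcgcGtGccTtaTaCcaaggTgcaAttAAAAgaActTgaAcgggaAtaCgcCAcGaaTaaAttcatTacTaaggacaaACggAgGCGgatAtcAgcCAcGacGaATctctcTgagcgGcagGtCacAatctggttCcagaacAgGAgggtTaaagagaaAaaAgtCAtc
HOXD13, chr2:176094524-176094703, plus strand: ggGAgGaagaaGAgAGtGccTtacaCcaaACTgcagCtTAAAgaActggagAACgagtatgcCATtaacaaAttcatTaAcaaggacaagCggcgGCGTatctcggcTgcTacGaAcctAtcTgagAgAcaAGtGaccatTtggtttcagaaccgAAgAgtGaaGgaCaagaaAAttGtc

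Over these 180 bases HOXC13 differed from HOXB13 at 36, HOXD13 at 54 and HOXA13 at 55. The most alike pair, HOXB13 and HOXC13, was 80.0% identical with a longest shared run of 20 bases, and the other 5 pairs were 69.4% to 76.1% identical. In RC77 T/E, HOXB13 is listed at 0 and the other 3 paralogs were at 0.00879 to 0.0690 TPM.

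Groups 1 to 11, taken as a whole, showed the opposite lean. Of the 29 HOX genes of groups 1 to 11, 16 were at 1 TPM or above in RC77 T/E and 2, HOXA10 and HOXC4, in MDA PCa 2b. Of all genes, 52.8% and 49.6% were. In these groups 23 genes were higher in RC77 T/E versus 5 in MDA PCa 2b, beside 37.4% and 41.3% of all genes. In groups 12 and 13 none of 6 was higher in RC77 T/E and 5 were higher in MDA PCa 2b. In both lines, 12 of the 29 genes and 3 of the 6 were under 1 TPM. Some of these directions, such as those of HOXC8 and HOXD13, thus rest on values near 0. The 5 exceptions of groups 1 to 11 were HOXB9, HOXC4, HOXC8, HOXC10 and HOXC11, so that all but HOXB9 belong to the HOXC cluster. These group limits were drawn after the values were seen. Of the lineage markers given above, 9 of 11 luminal genes were higher by 2-fold or more in MDA PCa 2b and all 10 basal genes in RC77 T/E. The shares over all genes whose mean reached 1 TPM were 20.0% and 19.4%. The part of these markers in the pattern was not tested.

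**Figure D4:**
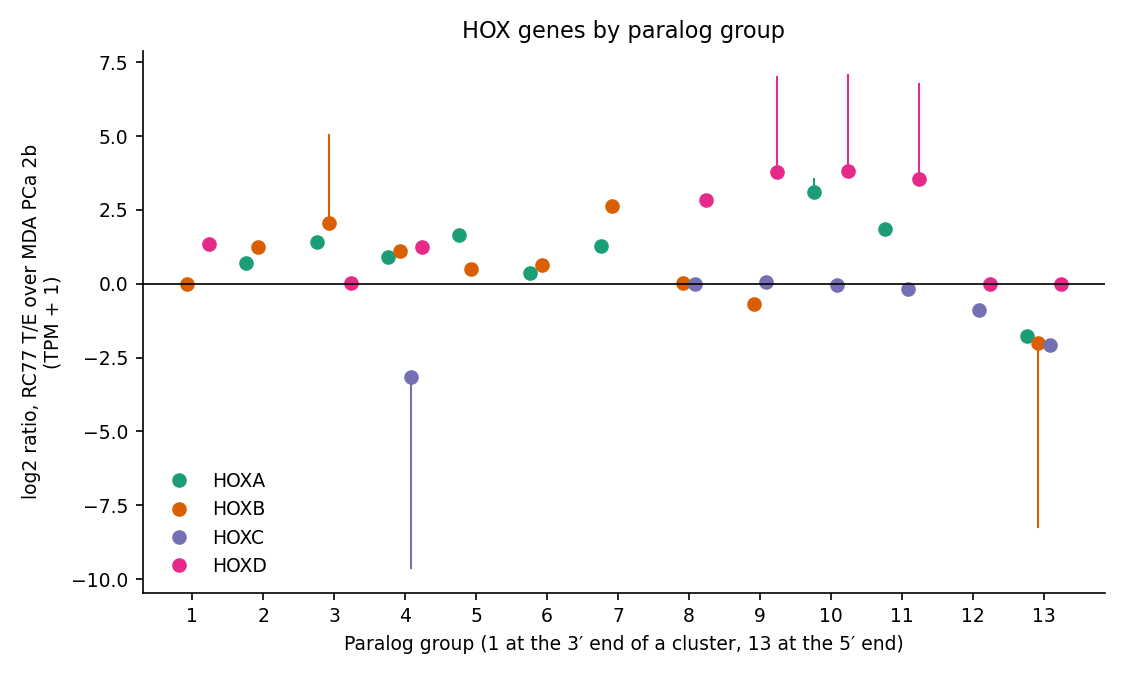
Log2 ratio of RC77 T/E over MDA PCa 2b (TPM + 1) of each HOX gene by paralog group, colored by cluster, with points at the lowest decimal position and lines reaching to the highest. The genes of group 13 lie at or below 0, and those of groups 1 to 11 lie at or above 0 except HOXB9 and genes of the HOXC cluster.

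In the HOXA cluster (chromosome 7, 27100354 to 27200091) expression in RC77 T/E was higher than in MDA PCa 2b for each gene described from HOXA2 to HOXA11, of which HOXA2 and HOXA6 stayed under 1 TPM. The 6 genes from HOXA2 to HOXA7 ranged from 0.326 to 2.26 TPM in RC77 T/E and reached at most 0.105 TPM in MDA PCa 2b. HOXA5, known for its role in lung and breast epithelium, was at 0.0391 TPM in MDA PCa 2b against 2.26 TPM in RC77 T/E, 57.9 times as high. HOXA3 and HOXA7 are listed at 0 in MDA PCa 2b and were at 1.64 and 1.43 TPM in RC77 T/E.

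Lower values were found for the other genes of the row. HOXA4 was at 0.105 TPM in MDA PCa 2b against 1.09 TPM in RC77 T/E, HOXA6 at 0.0198 and 0.326 TPM, and HOXA2 is listed at 0 and was at 0.626 TPM. The intervals of HOXA4, HOXA5 and HOXA6 overlap that of HOXA3 on the same strand, so how reads were divided among these genes depends on the authors' counting.

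HOXA10 and HOXA11, which pattern the uterus, kidney and limb, were the highest HOXA genes in RC77 T/E. HOXA10 was at 2.29 TPM in MDA PCa 2b against 27.6 TPM in RC77 T/E, or at 22.9 and 275.8 TPM, and in either case 12.03 times as high in RC77 T/E. The HOXA10 interval overlaps HOXA9 on the same strand, a gene not analysed here. HOXA11 was at 0.383 TPM in MDA PCa 2b against 4.04 TPM in RC77 T/E, 10.6 times as high. Past HOXA11 the order turned: HOXA13 was higher in MDA PCa 2b, as given above. Summed over 9 genes, the cluster held 5.34 to 26.0 TPM in MDA PCa 2b and 39.0 to 287.2 TPM in RC77 T/E.

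The HOXB cluster (chromosome 17, 48528526 to 48728750) was split in the same manner, with HOXB2 to HOXB8 higher in RC77 T/E. None of the 8 genes from HOXB1 to HOXB8 exceeded 0.0362 TPM in MDA PCa 2b, and 4 of them are listed at 0 there. HOXB7, often studied in breast and colon tumors, was at 0.0309 TPM in MDA PCa 2b against 5.39 TPM in RC77 T/E, 174 times as high. HOXB2 was at 0.00834 and 1.40 TPM, 167 times as high. HOXB3 is listed at 0 in MDA PCa 2b and was at 3.15 or 31.5 TPM in RC77 T/E. HOXB4, a factor of blood stem cells, is listed at 0 and was at 1.16 TPM.

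Between and beyond these genes the levels were lower. HOXB5 was at 0.00742 TPM in MDA PCa 2b against 0.429 TPM in RC77 T/E, and HOXB6 is listed at 0 and was at 0.565 TPM. HOXB8 was at 0.0362 and 0.0571 TPM, near 0 in both. HOXB9 broke the row with the higher value in MDA PCa 2b, at 0.964 against 0.219 TPM, 4.40 times as high. HOXB1 is listed at 0 in both lines. HOXB8 and HOXB9 overlap the interval of HOXB7, and HOXB4, HOXB5 and HOXB6 overlap that of HOXB3, each on the same strand. The 10 HOXB genes summed to 4.06 to 302.8 TPM in MDA PCa 2b, where HOXB13 decided the sum, and to 12.4 to 40.7 TPM in RC77 T/E.

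The HOXC cluster (chromosome 12, 53938831 to 54056030) was expressed in MDA PCa 2b only, at its ends. None of its 7 measured genes exceeded 0.0690 TPM in RC77 T/E, and 4 are listed at 0. HOXC4 (ENSG00000198353, 54016931 to 54056030), at the 3′ end, had 7.89, 78.9 or 789.4 TPM in MDA PCa 2b but is listed at 0 in RC77 T/E. At the 5′ end HOXC13 was followed by a falling series in MDA PCa 2b: HOXC12 was at 0.852 TPM, HOXC11 at 0.155 TPM and HOXC10 at 0.0298 TPM. HOXC9 is listed at 0 in MDA PCa 2b and was at 0.0372 TPM in RC77 T/E, and HOXC8 was at 0.0173 TPM in MDA PCa 2b.

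HOXC4 thus stood apart from its measured neighbours in the same cluster. Its interval overlaps HOXC5 and HOXC6 on the same strand, which were not analysed here. RNA from these genes and from HOXC4 cannot be told apart in this row. The 7 HOXC genes summed to 12.4 to 793.9 TPM in MDA PCa 2b against 0.116 TPM in RC77 T/E.

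The HOXD cluster (chromosome 2, 176092721 to 176190907) was the reverse, expressed in RC77 T/E and near 0 in MDA PCa 2b. Its highest value in MDA PCa 2b was that of HOXD13, at 0.0189 TPM, and 7 of 9 genes are listed at 0 there. HOXD8, which lies in the middle of the row, was at 0.0140 TPM in MDA PCa 2b against 6.17 TPM in RC77 T/E, 442 times as high. HOXD9, HOXD10 and HOXD11, known for their roles in limb and urogenital patterning, are listed at 0 in MDA PCa 2b. In RC77 T/E, HOXD9 was at 12.8 or 127.6 TPM, HOXD10 at 13.2 or 131.7 TPM and HOXD11 at 10.8 or 107.7 TPM. All 3 were thus above 10 TPM in RC77 T/E at any position of the mark, with HOXD10 and HOXD11 sharing bases on the same strand.

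At the 3′ end of the row, HOXD1 and HOXD4 were at 1.53 and 1.39 TPM in RC77 T/E and are listed at 0 in MDA PCa 2b. HOXD3, whose interval contains HOXD4, was at 0.0259 TPM in RC77 T/E and is listed at 0 in MDA PCa 2b. HOXD12 is listed at 0 in both lines, so that no gene 5′ of HOXD11 reached 1 TPM. The cluster summed to 0.0328 TPM in MDA PCa 2b and to 45.8 to 376.1 TPM in RC77 T/E.

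Noncoding RNAs transcribed within or at the clusters were counted next. Of 28 such RNAs listed, 20 were in the table, and 1 was at 1 TPM or above in MDA PCa 2b versus 5 in RC77 T/E. Among all genes, 49.6% and 52.8% reached this level. All 5 were higher in RC77 T/E by 2-fold or more, beside 19.4% of all genes whose mean reached 1 TPM. A low RNA passed 1 TPM only through the line in which it was high, so this count describes the RNAs and supports nothing. HOTAIRM1, an RNA from beside HOXA2, was at 1.38 and 19.9 TPM, or 13.8 and 198.8 TPM, 14.4 times as high in RC77 T/E. HOXA10-AS was at 0.178 TPM in MDA PCa 2b against 5.83 TPM in RC77 T/E, and HOXA11-AS at 0.662 and 2.69 TPM. In the HOXD cluster HAGLR was at 2.87 or 28.7 TPM and HOXD-AS2 at 2.85, 28.5 or 285.4 TPM in RC77 T/E, and both are listed at 0 in MDA PCa 2b.

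Each of these 5 RNAs overlaps or lies beside HOX genes that were higher in the same line. HOXC13-AS, which overlaps HOXC13, was at 0.853 TPM in MDA PCa 2b against 0.0275 TPM in RC77 T/E, and HOTTIP, which overlaps HOXA13, was at 0.162 and 0.00358 TPM. HOTAIR, an RNA of the HOXC cluster known for its link to Polycomb, was at 0.0123 TPM in MDA PCa 2b but is listed at 0 in RC77 T/E. The microRNA genes MIR10A, MIR10B, MIR196A1, MIR196A2, MIR196B and MIR615 are listed at 0 in both lines. Whether these libraries capture microRNAs was not tested, so the values of 0 do not show that the microRNAs were absent. Whether the authors' values use strand information is not given in the sources used here, so reads of a HOX gene and of its antisense RNA cannot be told apart.

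Within the limits of the clusters, from the first to the last HOX gene described, the table has 20 other genes, of which none reached 1 TPM in MDA PCa 2b and 4 did in RC77 T/E. Outside them, 14 other genes, HOTAIRM1 among them, lie within 200 kb, of which 8 were at 1 TPM or above in MDA PCa 2b versus 7 in RC77 T/E. Of all genes, 49.6% and 52.8% reached this level, so the shares inside were lower and those outside were near it. The nearest protein-coding genes were SKAP2 and EVX1 at the HOXA cluster, SKAP1 and TTLL6 at HOXB, SMUG1 at HOXC and EVX2 and MTX2 at HOXD. MTX2, a mitochondrial import gene 78488 bases from HOXD1, stood 1.22 times as high in MDA PCa 2b, and SKAP2 stood 3.29 times as high in RC77 T/E. SMUG1, a uracil-DNA glycosylase gene, stood 2.17 times as high in MDA PCa 2b. EVX1 and EVX2, homeobox genes next to the 5′ ends of HOXA and HOXD, did not exceed 0.0124 TPM in either line.

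HOX proteins bind DNA together with PBX and MEIS family cofactors, which are also homeodomain proteins. Of the 8 cofactor genes considered, 4 were at 1 TPM or above in MDA PCa 2b versus 6 in RC77 T/E, beside 49.6% and 52.8% of all genes. MEIS3 was at 0.0819 TPM in MDA PCa 2b against 3.71 TPM in RC77 T/E, and PBX4 at 0.245 and 2.39 TPM. Of the 6 with a mean of 1 TPM or above, these 2 were higher in RC77 T/E by 2-fold or more versus 1 in MDA PCa 2b. The shares over all such genes were 19.4% and 20.0%. MEIS1, a cofactor known to act with HOXB13 in prostate cells, stood 3.11 times as high in MDA PCa 2b at every position of its mark, with at least 5.68 and 1.82 TPM. PBX2 and PBX3 were expressed in both lines at ratios of RC77 T/E over MDA PCa 2b of 1.13 and 2.11, the latter a log2(TPM + 1) ratio of 0.92. PKNOX1 stood 2.26 times as high in MDA PCa 2b, a log2(TPM + 1) ratio of -0.98 at the lowest position.

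Polycomb proteins keep HOX clusters silent and Trithorax proteins keep them active. All 25 genes considered were at 1 TPM or above in both lines, beside 45.7% of all genes. The lowest value was 5.13 TPM in MDA PCa 2b against 1.84 TPM in RC77 T/E. Of the 25, 7 were higher in MDA PCa 2b by 2-fold or more and 1 in RC77 T/E, beside 20.0% and 19.4% of all genes whose mean reached 1 TPM. The median log2 ratio was -0.57, against -0.15 for all such genes. BMI1, with its mark open, stood 2.31 times as high in MDA PCa 2b. It was not counted because its log2(TPM + 1) ratio at the lowest position was -0.98. CBX2, a chromobox subunit of Polycomb complexes, was at 21.3 TPM in MDA PCa 2b against 1.84 TPM in RC77 T/E, 11.6 times as high. The chromobox genes CBX8, CBX7 and CBX6 were 3.02, 2.74 and 2.14 times as high in MDA PCa 2b. PCGF2 stood 2.16 times as high in MDA PCa 2b, as were the demethylase gene KDM6B, 2.34 times, and the methyltransferase gene DOT1L, 2.28 times.

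JARID2, which guides Polycomb complexes to DNA, stood 3.83 times as high in RC77 T/E. The core subunits of the complex that methylates histone H3 differed less. SUZ12 was at 12.6 TPM in MDA PCa 2b against 12.5 TPM in RC77 T/E, and EZH2 and EED were 1.35 and 1.36 times as high in RC77 T/E. KMT2A, a Trithorax-type activator of HOX genes, stood 1.48 times as high in RC77 T/E.

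Retinoic acid and the caudal-type factors are known activators of HOX genes in the embryo. Of the 19 genes considered for these inputs, 18 were in the table. Among these, 6 were at 1 TPM or above in MDA PCa 2b versus 5 in RC77 T/E, beside 49.6% and 52.8% of all genes. Of the 6 with a mean of 1 TPM or above, 3 were higher in RC77 T/E by 2-fold or more versus 1 in MDA PCa 2b. Over all genes with such a mean, the shares were 19.4% and 20.0%. CDX2, a caudal factor of the intestine, was at 8.45, 84.5 or 844.8 TPM in MDA PCa 2b but is listed at 0 in RC77 T/E, and CDX1 and CDX4 stayed at or under 0.0665 TPM in both. CRABP2, a carrier of retinoic acid, was at 0.831 TPM in MDA PCa 2b against 77.3 TPM in RC77 T/E, 93.0 times as high. ALDH1A3, which makes retinoic acid, was 7.84 times and the receptor gene RARG 2.998 times as high in RC77 T/E.

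The receptor gene RARB, a known target of retinoic acid, was at 1.79 TPM in MDA PCa 2b against 0.0378 TPM in RC77 T/E. RARA and RXRB were at 5.07 and 21.7 TPM in MDA PCa 2b and at 5.33 and 21.8 TPM in RC77 T/E.

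**Figure D5:**
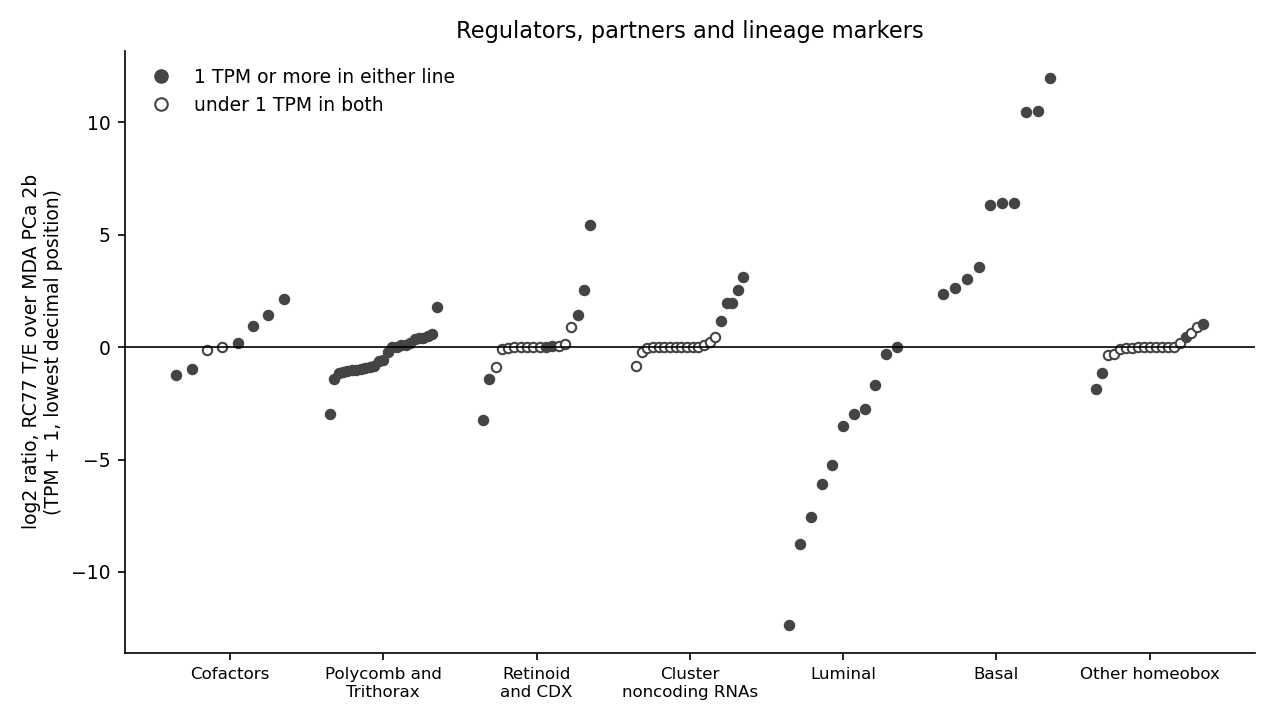
Log2 ratio of RC77 T/E over MDA PCa 2b (TPM + 1, lowest decimal position) of each gene of 7 lists, sorted within a list, with filled points for genes at 1 TPM or above in either line. Luminal genes lie at or below 0 except KRT18 (ratio 1.01) and basal genes lie above 0, while the Polycomb and Trithorax list stays between -2.98 and 1.77.

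Other homeobox genes were mostly low. Of 19 genes considered that neighbour the HOX family or resemble it, 4 were at 1 TPM or above in MDA PCa 2b versus 3 in RC77 T/E. The shares over all genes were 49.6% and 52.8%. DLX1, known from forebrain development and as a urine marker of prostate cancer, stood 4.11 times as high in MDA PCa 2b, at 22.7 against 5.51 TPM or 226.6 against 55.1 TPM. Its neighbour DLX2 stood 2.89 times as high in RC77 T/E. EN2, another homeobox gene studied in prostate cancer, was at 1.22 TPM in MDA PCa 2b but is listed at 0 in RC77 T/E. EVX1, EVX2, MEOX1, MEOX2, EN1 and PDX1 stayed under 0.0149 TPM in both lines, and GBX1, GSX1 and GSX2 are listed at 0.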

How the data were processed

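Total RNA of untreated cells of both lines was sequenced in 1 paired-end, directional library each. The authors deposited TPM values, and the other numbers of the table are their mean and standard error. The submitters' processing notes name CASAVA, FastQC 0.11.9, Trimmomatic 0.38, Salmon 1.2.0 and the build GRCh38, without roles, and the row identifiers have the form that Cufflinks gives. The annotation and the sequencing depth are not given in the sources used here. All value columns were used.

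The files hold TPM with lost decimal marks, where the design had assumed plain TPM. Marks were tried behind each of the first 3 digits, with 3 or more decimals left, and pairs whose mean and standard error were as deposited, within rounding, were kept. Of 22791 rows, 16283 had 1 position and 6508 had 2 or 3. The step was tested on simulated rows. Open marks were set to the lowest position for counts and sums. Loci of a symbol were summed. The log2 ratio was that of TPM + 1, which understates the change of low genes. No test was made. Members and gene lists were chosen with earlier results of these data known. Some genes of the family and lists, not reported here, stayed out of counts, sums, medians and plots. Every other member is accounted for. Outside the luminal and basal lists, genes are named when at 1 TPM or above in either line and at least 2-fold different in log2(TPM + 1). Of the luminal and basal lists only some of the genes that pass are named, the defining lineage markers among them. Also named are the nearest protein-coding gene beside each cluster and a few others that were chosen after their values were seen. Positions are those of the deposited table (GRCh38), strands and overlaps those of GENCODE release 29, in which 11 of 37 members had the same start and end. Python 3.11.15, numpy 2.4.6 and matplotlib 3.10.9 were used. Alternatives concerned the threshold, pseudocount, filter, centring, scaling, locus and decimal mark.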

Additional observations from a re-analysis of the deposited data

How the results depend on the processing

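At a threshold of 5 TPM, 3 of 37 members were expressed in MDA PCa 2b in place of 7, and 6 in RC77 T/E cells in place of 16. With open marks at the highest position, a setting chosen after seeing the data, these counts at 5 TPM were 5 and 7. At 0.5 TPM the counts were 9 and 18. The shares of all genes at 5 and 0.5 TPM were not computed, so these counts describe the members only. Of the 15 members with a mean of at least 1 TPM, 9 were higher in RC77 T/E by 2-fold or more and 6 in MDA PCa 2b. All 15 were thus called. A pseudocount of 0.1 TPM and the highest positions only enlarge these ratios, and each member has 1 locus. These settings and the largest locus therefore could not change the counts. Centring and scaling to the upper quartile could, and the counts were the same with them. Without the filter on low values the RC77 T/E count was 15. The median log2 ratio of the members with a mean of at least 1 TPM was 1.87, beside -0.15 for all such genes. It was 3.53 with a pseudocount of 0.1 TPM, 0.65 over all 35 members above 0, and 16.66 with commas read as mere digit grouping, because that reading inflates values of 1 TPM or more. It was 2.02 with centring and 1.94 with upper quartile scaling.

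With open decimal marks at the highest position, the summed TPM rose to 26.0 for HOXA, 302.8 for HOXB and 793.9 for HOXC in MDA PCa 2b, and to 287.2 for HOXA, 40.7 for HOXB and 376.1 for HOXD in RC77 T/E cells. The order of HOXB between the lines is therefore not determined. Of the 22 members at 1 TPM or above in either line, a pseudocount of 0.1 TPM moved the log2 ratio of 19 by over 1.5 times. The highest positions moved 6 and centring moved none. None of these settings reversed a sign, and only centring could have done so.

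No paired analysis was possible because the groups hold 1 library each, and none was left out for the same reason. As depth is unknown, values near 0 have no detection limit to compare with.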
